A study of Homo sapiens with 20 samples.

Results

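The p53 target genes described here are 40 genes of DNA repair, metabolism, growth arrest, survival and the cell surface that lie outside the CDK inhibitor, feedback and apoptosis families of p53 targets. They are taken from a list of gene names, which was drawn up with earlier results of these data known, and all 40 had a row among the 20314 genes of the deposited count table, of which 14992 passed the filter on low counts and were tested. Of the 40 members 39 were tested, and SPATA18 was not. The libraries came from U2-OS, a human osteosarcoma line, with 5 replicates of every condition. These were untreated cells, cells taken 90 min or 7 days after a single dose of ionizing radiation (IR) of 20 Gy, and non-irradiated cells carrying an shRNA against NFKBIA, the gene of the NF-κB inhibitor IκBα, called the knockdown here. All cells were grown in DMEM with 10% FCS. The methods of the study describe inducible shRNA vectors, selection of clones with puromycin, doxycycline treatment and scrambled shRNA controls, but in the labels the untreated cells carry no mention of a vector, an shRNA or doxycycline. Vector, clone and drug can therefore not be told apart from the loss of NFKBIA in the knockdown comparison.

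p53 is a transcription factor that is stabilised when DNA is broken. It binds a pair of copies of a 10-base element, known as the p53 consensus half-site, near its targets. Its targets include genes that remove DNA lesions, limit oxidative damage, slow growth, and protect from or promote cell death, and p53 is one of the factors that keep damaged cells from dividing in senescence. The libraries at 90 min and 7 days stand for an acute and a late state of the damage response, and the knockdown asks which late changes appear when NF-κB is released without irradiation.

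The sites below are shown because the element that p53 reads could be looked for directly in the promoters of these genes. RefSeq promoter windows, with 250 bases before and 50 bases after a transcription start on GRCh38.p14, were found for 33 of the 40 members and comprised 45 windows. The p53 consensus half-site, a 10-base pattern that reads the same on both strands, was searched in them. Capitals mark the half-sites, and each sequence is written 5′ to 3′ on the strand of its gene. A half-site without mismatch lay in 6 members, and 30 bases around it, or 2 adjoining half-sites, are given.
SESN1, chr6:109009018-109009047, minus strand: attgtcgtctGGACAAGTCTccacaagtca
PLK2, chr5:58460199-58460228, minus strand: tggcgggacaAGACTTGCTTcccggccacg
FDXR, chr17:74872986-74873015, minus strand: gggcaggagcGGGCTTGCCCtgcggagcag
AEN, chr15:88621296-88621325, plus strand: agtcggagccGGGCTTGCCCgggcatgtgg
DDB2, chr11:47214979-47214999, plus strand: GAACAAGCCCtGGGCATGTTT
RAP2B, chr3:153162155-153162184, plus strand: ggaacgcactGGGCATGCTCgccggggagg
DDB2 was the member with 2 half-sites in a row, separated by 1 base and located 6 to 26 bases after one of its starts, in the transcribed part. Of the member windows 13.3% held a half-site, compared with 6.63% of all 35114 promoter windows of the RefSeq table. A pair of half-sites 0 to 13 bases apart lay in 1 of the 45 member windows (2.22%), that of DDB2. Of all 35114 windows 10 held such a pair (0.0285%).

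When 1 mismatch was allowed in each half-site, pairs were found in the windows of DDB2 and GLS2, which were 4.44% of the member windows, compared with 1.84% of all windows. The GLS2 pair, 153 to 129 bases before the start, is shown because GLS2 was among the members with the largest difference at 7 days.
GLS2, chr12:56488290-56488314, minus strand: GAGCCAGCTTtaaagGGGCAGGCCC
The promoter of PVRL4, the member with the largest difference at 7 days, is shown for comparison. Its 250 bases before the start held no exact half-site, and capitals mark the 2 half-sites with 1 mismatch.
PVRL4, chr1:161089559-161089808, minus strand: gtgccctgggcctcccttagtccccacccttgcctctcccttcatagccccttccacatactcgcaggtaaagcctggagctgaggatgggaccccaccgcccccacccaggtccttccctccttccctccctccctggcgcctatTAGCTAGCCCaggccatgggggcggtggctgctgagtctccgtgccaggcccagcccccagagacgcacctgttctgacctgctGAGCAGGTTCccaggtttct
A single half-site with 1 mismatch is common, since 45.1% of all windows and 51.1% of the member windows held one. A match says that these letters are present in the window and nothing about binding.

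The libraries held 22535659 to 40390961 counts. Levels are given as CPM, read counts scaled to the size of each library and between libraries by TMM, and differences as log2 fold changes with their standard error (SE). A gene was called when its adjusted p was under 0.05 and its log2 fold change above 0.5 in size. The targeted gene followed the labels, as NFKBIA was at 28.6, 23.5, 27.4, 35.0 and 42.0 CPM in untreated cells and between 11.2 and 13 CPM in the 5 knockdown libraries. Untreated replicate 5 stood apart. It had the lowest total count, was the only untreated library sequenced in lane 3, correlated with the other untreated libraries at r = 0.970 to 0.981 across genes on the log2 scale, compared with 0.988 to 0.997 for all other pairs within a group, and was the lowest or highest untreated library for 31 of the 39 members. Untreated replicate 4 was so for 25 members and the other 3 for 2 to 14. Values without a library come from fits that repeat the filter and the TMM scaling over the 19 libraries left. Where the TMM factors are said to be kept, the genes tested and the factors were those of all libraries. Markers of the mesenchymal lineage were present (VIM at 1844 to 2992 and RUNX2 at 67.6 to 206 CPM), except COL1A2 at 0.595 CPM or less and TWIST1, which was at 0 in 3 groups.

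Many members were higher after irradiation and none was called lower than in untreated cells. At 90 min 19 of the 39 tested members were called higher and 0 lower against untreated cells. Of all genes tested 2.08% were called higher, 1.57% lower and 3.66% in either direction. The median log2 fold change of the members was 0.47, compared with −0.03 over all genes. After 7 days 29 members were higher and 0 lower, with background shares of 16.7%, 14.4% and, in either direction, 31.1%, and medians of 0.89 for the members and 0.01 for all genes. One further member at 90 min (PRDM1) had an unadjusted p under 0.05 below 0, and none at 7 days did. Irradiated and untreated libraries did not overlap for 25 members at 90 min (12.3% of all genes) and for 34 at 7 days (44.8% of all genes). RNA came from whole cultures, so that a change in every cell and a change in a part of the cells cannot be told apart. Without untreated replicate 5 the counts were 18 at 90 min and 28 at 7 days, and without untreated replicate 4 they were 16 and 28. No lane held both untreated and 7 days libraries. Lane and group can be separated there only through the 90 min libraries and untreated replicate 5. Lane 2, with the other untreated libraries, held no other group. With lane as a factor the untreated level thus rests on untreated replicate 5 alone, and the median at 7 days was 1.14.

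**Figure D1:**
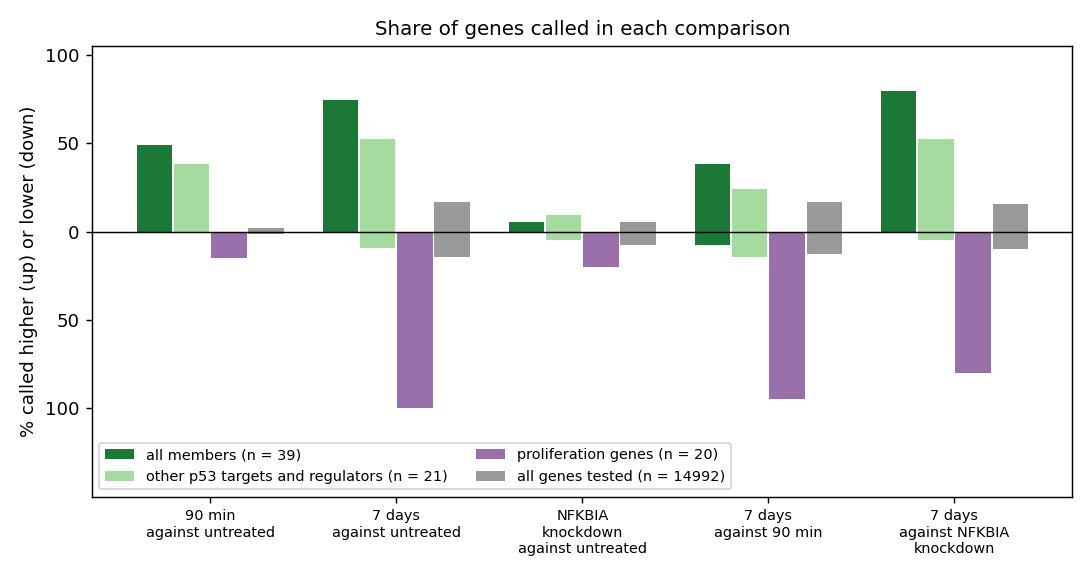
Share of genes called higher (bars upward) or lower (bars downward), in percent of the genes tested, for the members, 2 other gene lists and all genes in each of the 5 comparisons. The upward member bars exceed those of all genes at 90 min and 7 days and are about level with them in the knockdown, and the members have no downward bar against untreated cells.

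Most genes of growth arrest, transcription and protein turnover were already higher at 90 min. Of 9 tested members of this role 7 were higher at 90 min (2.08% of all genes), with a median of 0.86 (log2 fold change), and 7 were higher at 7 days (16.7% of all genes), with a median of 1.13. BTG2, an antiproliferative partner of the CCR4-NOT deadenylase, was at 65.0, 60.4, 61.7, 64.0 and 68.7 CPM in untreated cells, at 240, 232, 236, 232 and 245 CPM at 90 min, and at 157, 160, 153, 149 and 144 CPM at 7 days. The 3 groups were fully separate, with the 90 min libraries highest. The log2 fold change of BTG2 was 1.89 ± 0.04 (SE, adjusted p = 1.5e-17) at 90 min and 1.25 ± 0.04 at 7 days (adjusted p = 9e-16). From 90 min to 7 days it fell by 0.63 on the log2 scale (adjusted p = 3.4e-11). For all members called in a comparison, an exact two-sided permutation test of log2 CPM over the libraries gave p = 0.00794, the smallest that 5 libraries against 5 allow.

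SERTAD1, which encodes a cyclin-dependent kinase 4 and E2F partner protein, showed the same order of the 3 groups. It was at 37.1, 32.4, 30.5, 41.2 and 15 CPM in untreated cells, at 80.8, 72.0, 73.9, 72.1 and 73.8 CPM at 90 min, and at 39.1, 41.8, 36.7, 38.1 and 40.0 CPM at 7 days. All 90 min libraries lay above all others, while untreated and 7 days libraries overlapped. SERTAD1 rose by a log2 fold change of 1.25 ± 0.15 (adjusted p = 3.9e-06) at 90 min and fell by 0.93 on the log2 scale from 90 min to 7 days (adjusted p = 1.5e-05), and at 7 days it had a log2 fold change of 0.32 ± 0.15 against untreated cells (adjusted p = 0.070), which was 0.13 without untreated replicate 5.

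The stress-responsive polo-like kinases were higher at both times. PLK2 was at 90.7, 79.9, 88.4, 94.0 and 91.9 CPM in untreated cells, at 171, 162, 150, 158 and 167 CPM at 90 min and at 192, 205, 192, 189 and 194 CPM at 7 days, again without overlap. Its log2 fold change was 0.86 ± 0.05 at 90 min and 1.13 ± 0.05 at 7 days. PLK3 rose from 26.3 ± 1.52 CPM (SD, n = 5) to 61.8 ± 2.44 CPM at 90 min and 84.8 ± 4.19 CPM at 7 days. TP53INP1, a stress protein of autophagy and transcription, rose from 89.3 ± 11.7 to 182 ± 14.4 and 215 ± 7.25 CPM. The RNA-binding zinc finger protein ZMAT3 had log2 fold changes of 0.53 ± 0.06 at 90 min and 1.24 ± 0.06 at 7 days, and the ankyrin repeat protein ANKRA2 of 0.60 ± 0.06 and 0.98 ± 0.06. The first ZMAT3 value lies close to the limit of 0.5 and was 0.49 without untreated replicate 5 and 0.48 without replicate 4, and then not called. FBXO22, an F-box subunit of a ubiquitin ligase, was called at 7 days (log2 fold change 0.73 ± 0.05) and just missed the limit at 90 min (0.47 ± 0.05). The transcriptional repressor PRDM1 was the exception of this role. Its log2 fold change was −0.40 ± 0.12 at 90 min and 0.32 ± 0.12 at 7 days, both uncalled, and it was higher at 7 days than at 90 min by 0.72 ± 0.12 (adjusted p = 2.5e-05).

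**Figure D2:**
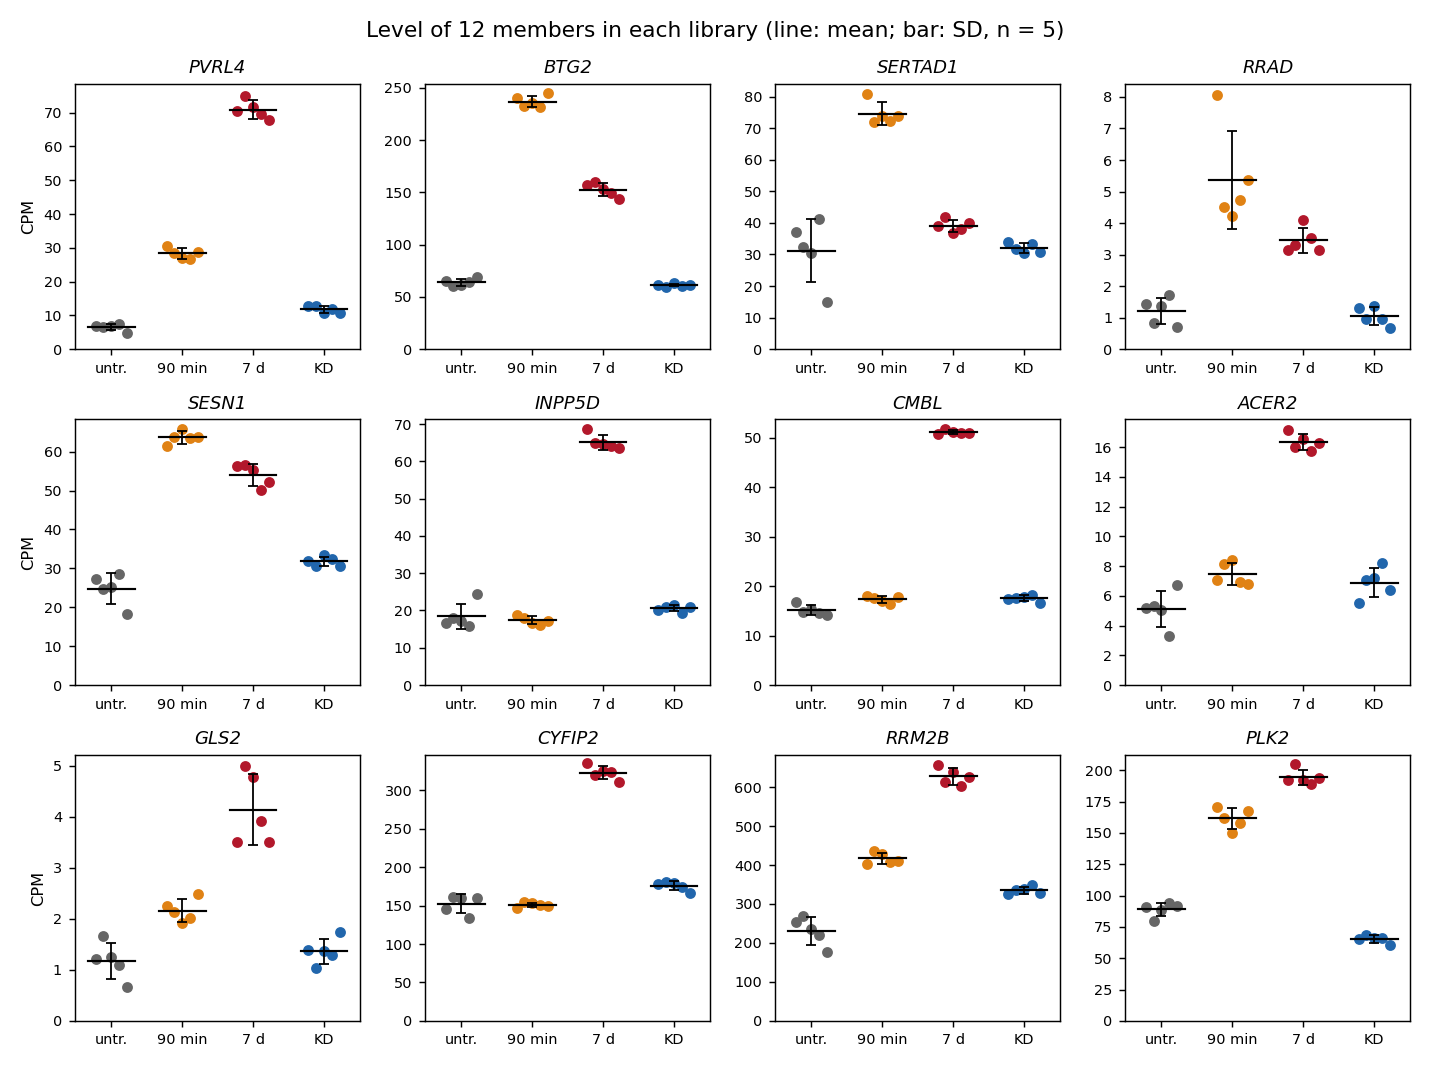
Level in TMM-scaled CPM (linear axes from 0) of 12 members in each library of untreated cells (untr.), cells at 90 min and 7 days (7 d) after IR, and NFKBIA knockdown cells (KD). Shown are the members among the 5 largest called differences of any of the comparisons. Points are libraries, lines means and bars SD (n = 5); BTG2, SERTAD1, RRAD and SESN1 have their highest mean at 90 min, and the other 8 members at 7 days.

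Of 6 genes of DNA repair and nucleotide supply, 1 was called higher at 90 min (2.08% of all genes) and 5 at 7 days (16.7% of all genes), with median log2 fold changes of 0.31 and 0.68. RRM2B, the p53-inducible small subunit of ribonucleotide reductase, was the member called at both times. It was at 253, 270, 236, 220 and 177 CPM in untreated cells, at 403, 435, 429, 407 and 410 CPM at 90 min and at 658, 614, 638, 603 and 626 CPM at 7 days. The groups did not overlap and each later group was higher. The log2 fold changes of RRM2B were 0.85 ± 0.08 at 90 min, 1.44 ± 0.08 at 7 days, and 0.59 ± 0.08 from 90 min to 7 days (adjusted p = 7.4e-07). ASCC3, a helicase of alkylation repair, was at 109 ± 13.1 CPM (SD, n = 5) in untreated cells and 116 ± 5.32 CPM at 90 min, but at 197 ± 5.93 CPM at 7 days, and was also higher at 7 days than at 90 min (log2 fold change 0.77 ± 0.07).

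DDB2 and XPC act in nucleotide excision repair, and POLH encodes a translesion polymerase. POLH had log2 fold changes of 0.44 ± 0.08 at 90 min and 0.77 ± 0.08 at 7 days. XPC had values of 0.33 ± 0.04 and 0.59 ± 0.04. DDB2, whose window held the pair of half-sites, had values of 0.29 ± 0.05 and 0.50 ± 0.05. The 90 min values of all 3 were above 0 with adjusted p-values of 0.00039, 7.5e-06 and 0.00055 for POLH, XPC and DDB2, but under the limit of 0.5 on the fold change. Without untreated replicate 5 POLH passed it (0.51), which made 2 of the 6 genes called at 90 min, and without replicate 4 it was at 0.34. Between 90 min and 7 days none of them was called. The DDB2 call at 7 days lies at the limit itself and was lost in 8 of 10 fits that left out 1 library (5 of 10 with the TMM factors of all libraries kept). With lane as a factor, where the untreated level rests on untreated replicate 5, DDB2 was at 0.33 and POLH at 0.47 at 7 days. REV3L, the catalytic subunit of the translesion polymerase ζ, was called in no comparison. It was at 52.5, 66.6, 65.0, 39 and 72.9 CPM in untreated cells, and its 7 days libraries, at 85.4, 73.5, 79.8, 73.9 and 80.0 CPM, all lay above these, with a log2 fold change of 0.41 ± 0.11 (adjusted p = 0.0035), which was 0.26 without untreated replicate 4, the lowest library.

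Among the redox and metabolic genes, some were high at 90 min and others were called at 7 days alone. Of 8 tested members 4 were higher at 90 min (2.08% of all genes) and 7 at 7 days (16.7%), and the medians of 0.43 and 1.23 made this the role with the largest median of the 5 roles at 7 days. The sestrins SESN1 and SESN2, which restrain mTORC1 and support antioxidant defence, were high at once. SESN1 was at 27.3, 24.7, 25.2, 28.5 and 18.3 CPM in untreated cells, at 61.4, 63.8, 65.9, 63.6 and 63.7 CPM at 90 min, and at 56.3, 56.5, 55.3, 50.03 and 52.3 CPM at 7 days. No library of a group reached those of another, and the 90 min libraries were the highest. SESN1 had log2 fold changes of 1.36 ± 0.08 (adjusted p = 8.2e-11) and 1.12 ± 0.08, and SESN2 of 1.14 ± 0.12 and 0.70 ± 0.12. From 90 min to 7 days the log2 fold change was −0.23 ± 0.08 for SESN1 and −0.44 ± 0.12 for SESN2, and neither was called.

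The remaining enzymes of this role were mainly higher at 7 days. CMBL, a hydrolase of the dienelactone family, was at 16.7, 14.7, 15.3, 14.6 and 14.2 CPM in untreated cells, at 17.9, 17.5, 17, 16.3 and 17.8 CPM at 90 min, and at 50.8, 51.8, 51.2, 50.9 and 50.9 CPM at 7 days. The 7 days libraries formed a narrow group above all others. The log2 fold change of CMBL was 1.76 ± 0.05 at 7 days (3.38-fold, adjusted p = 3e-17) and 1.56 ± 0.05 from 90 min to 7 days. ACER2, the Golgi alkaline ceramidase, was at 5.20, 5.31, 5.05, 3.30 and 6.71 CPM in untreated cells, at 7.09, 8.13, 8.44, 6.94 and 6.77 CPM at 90 min, and at 17.2, 16.0, 16.6, 15.8 and 16.3 CPM at 7 days. The lowest ACER2 library at 90 min lay just above the highest untreated library. Its log2 fold change was 0.56 ± 0.13 at 90 min, which was lost without untreated replicate 4 (0.43) and was 0.22 within lane 3, and 1.69 ± 0.12 at 7 days (adjusted p = 1.7e-10).

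GLS2, the mitochondrial glutaminase induced by p53, was expressed at a low level. It was at 1.22, 1.66, 1.25, 1.09 and 0.666 CPM in untreated cells, at 2.26, 2.13, 1.91, 2.02 and 2.49 CPM at 90 min, and at 3.51, 4.99, 4.79, 3.93 and 3.51 CPM at 7 days, with no overlap of the groups. The log2 fold changes of GLS2 were 0.84 ± 0.17 and 1.77 ± 0.16 (adjusted p = 6e-09). In GENCODE 29 GLS2 shares 77.1% of its exon bases with SPRYD4 on the other strand, and since the strand setting of the counting is not given in the sources used here, reads of the 2 genes may not be told apart. FDXR, the ferredoxin reductase of mitochondria, and the quinone oxidoreductase TP53I3 were not called at 90 min and had log2 fold changes of 1.35 ± 0.11 and 0.79 ± 0.09 at 7 days. Against untreated replicate 5 alone, the 1 untreated library of lane 3 and the lowest for FDXR at 55.7 CPM, the 90 min libraries of that lane differed by log2 fold changes of 0.94 for FDXR and 0.58 for TP53I3. Without untreated replicate 5 the log2 fold changes at 90 min were 0.18 for FDXR and −0.08 for TP53I3. ALDH4A1, of proline degradation, was not called at either time, and had a log2 fold change of 0.35 ± 0.10 at 7 days, or 0.21 without untreated replicate 5. It shares 41.1% of its exon bases with a readthrough gene on the same strand. SPATA18, of mitochondrial quality control, fell under the count filter, with 0 counts in all untreated libraries and 0 to 3 counts in every other library, and no fold was computed.

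**Figure D3:**
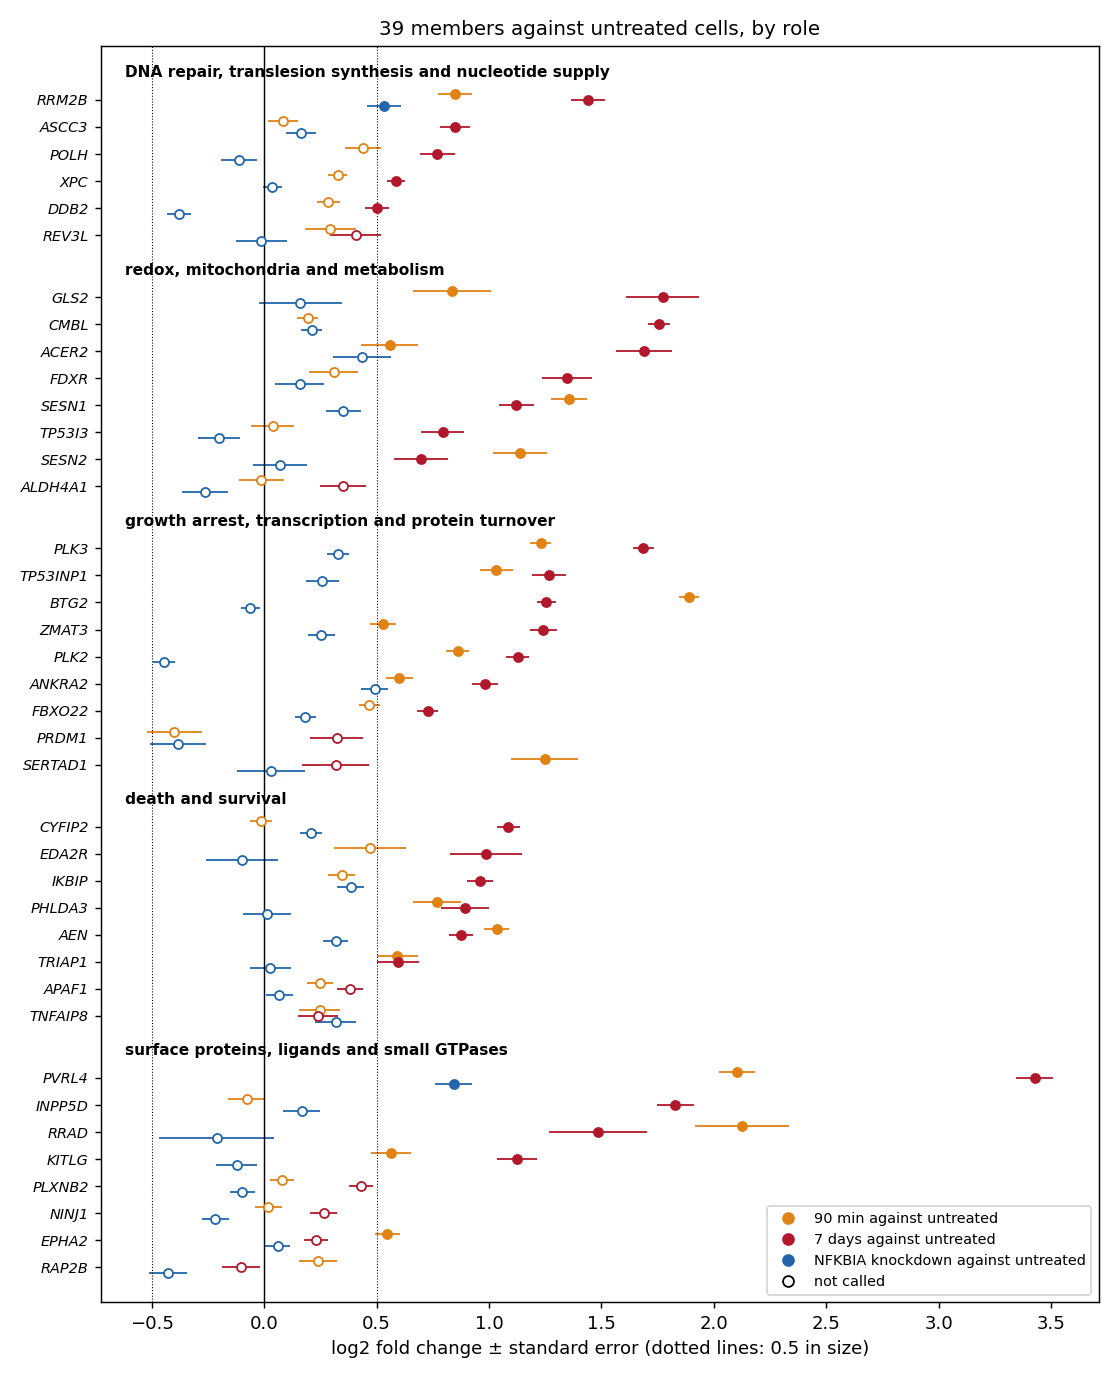
Log2 fold change ± SE of the 39 tested members against untreated cells, by role, for 90 min (orange), 7 days (red) and NFKBIA knockdown (blue), from 5 libraries per group. Filled points were called and open points were not; 19 orange, 29 red and 2 blue points are filled, and all of these lie above 0.

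Of the 8 genes of death and survival 3 were higher at 90 min (2.08% of all genes) and 6 at 7 days (16.7%), with medians of 0.41 and 0.88. The nuclease gene AEN rose from 80.6 ± 8.09 CPM (SD, n = 5) to 165 ± 4.27 CPM at 90 min and was at 148 ± 1.63 CPM at 7 days. PHLDA3, an inhibitor of AKT, rose from 87.2 ± 18.0 CPM to 149 ± 21.0 and 162 ± 3.91 CPM. TRIAP1, a mitochondrial inhibitor of apoptosis, had log2 fold changes of 0.59 ± 0.09 and 0.60 ± 0.09, and its 7 days call was lost without untreated replicate 5 (0.49, or 0.51 and called with the TMM factors kept). None of these 3 members was called between the times, although the AEN libraries at 7 days all lay below those at 90 min (log2 fold change −0.16 ± 0.05, adjusted p = 0.015). CYFIP2, a subunit of the WAVE actin regulatory complex, was at 145, 162, 160, 134 and 160 CPM in untreated cells, at 147, 154, 153, 151 and 150 CPM at 90 min, and at 336, 320, 326, 324 and 311 CPM at 7 days. Untreated and 90 min libraries of CYFIP2 overlapped and all 7 days libraries were higher, with a log2 fold change of 1.09 ± 0.05 against untreated cells (adjusted p = 8.3e-14) and 1.10 ± 0.05 against 90 min.

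IKBIP, named for its interaction with the kinase IKKβ, had log2 fold changes of 0.35 ± 0.06 at 90 min and 0.96 ± 0.06 at 7 days. It starts 501 bases from APAF1, the scaffold of the apoptosome, in the opposite direction on chromosome 12 (GRCh38.p14). APAF1 was called in no comparison, at 26.4, 25.7, 24.9, 21.5 and 24.1 CPM in untreated cells, 27.7, 31.4, 27.8, 31.8 and 27.2 CPM at 90 min and 33.1, 31.2, 30.7, 32.6 and 32.4 CPM at 7 days. The APAF1 groups at 90 min and 7 days lay above the untreated libraries with log2 fold changes of 0.25 ± 0.06 and 0.38 ± 0.06, under the limit of 0.5. TNFAIP8, a TNF-induced regulator of survival, was called in no comparison either, at 8.37, 7.58, 6.30, 8.11 and 8.75 CPM in untreated cells and 10.3, 9.30, 9.54, 7.94 and 8.88 CPM at 7 days, and these libraries overlapped. In the knockdown TNFAIP8 was at 9.18 to 10.2 CPM, above all untreated libraries, with a log2 fold change of 0.34 without untreated replicate 5.

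EDA2R, a receptor of the TNF receptor family for ectodysplasin A2, depended on untreated replicate 5. It was at 52.6, 57.1, 55.5, 43.4 and 114 CPM in untreated cells, between 85.1 and 92.8 CPM at 90 min and between 125 and 129 CPM at 7 days. The 114 CPM of untreated replicate 5 lay above all 90 min libraries, and the other untreated libraries lay below them. The log2 fold change at 90 min was 0.47 ± 0.16 with all libraries, 0.76 without untreated replicate 5 (adjusted p = 9.4e-10) and −0.35 within lane 3, where untreated replicate 5 is the only untreated library. At 7 days EDA2R was higher by 0.99 ± 0.16.

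The surface and signalling genes held the largest differences of the 40 members as well as several without a call. Of 8 members 4 were higher at 90 min (2.08% of all genes) and 4 at 7 days (16.7%), with medians of 0.39 and 0.78. PVRL4, the adhesion protein nectin-4, was at 6.83, 6.70, 7.01, 7.31 and 4.80 CPM in untreated cells, at 30.6, 28.4, 27.1, 26.8 and 28.9 CPM at 90 min, and at 70.4, 75.1, 71.8, 69.6 and 67.7 CPM at 7 days. Each group was far above the one before. PVRL4 rose 4.30-fold at 90 min (log2 fold change 2.10 ± 0.08, adjusted p = 6e-14) and 10.8-fold at 7 days (3.43 ± 0.08, adjusted p = 4.7e-18), and from 90 min to 7 days by a log2 fold change of 1.32 ± 0.07.

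RRAD, a Ras-related GTPase, was also high at 90 min but at a low level of expression. It was at 1.43, 0.830, 1.38, 1.71 and 0.713 CPM in untreated cells, at 8.05, 4.52, 4.22, 4.75 and 5.35 CPM at 90 min, and at 3.16, 3.32, 4.09, 3.53 and 3.15 CPM at 7 days. The highest value was that of replicate 1 at 90 min. RRAD had log2 fold changes of 2.13 ± 0.21 and 1.48 ± 0.22. From 90 min to 7 days it fell by 0.64 on the log2 scale (adjusted p = 0.0047), and without replicate 1 of the 90 min group by 0.47, when it was no longer called.

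INPP5D, the lipid phosphatase SHIP1 that is best known from blood cells, was a member of the late type. It was at 16.6, 18.0, 17.2, 15.8 and 24.4 CPM in untreated cells, at 18.8, 18.0, 16.7, 16.1 and 17.2 CPM at 90 min, and at 68.5, 64.8, 64.5, 64.2 and 63.5 CPM at 7 days. The 7 days libraries were separate from all others, with log2 fold changes of 1.83 ± 0.08 against untreated cells (adjusted p = 6.9e-14) and 1.91 ± 0.08 against 90 min. Of 3 blood markers, CD68 moved with it, at 20.9 to 25.6 CPM at 7 days and 1.27 to 6.28 CPM in untreated cells, while PTPRC stayed at 1.64 CPM or less and CD3E at 0.571 CPM or less. The summed level of the 3 markers was 22.5 to 27.3 CPM at 7 days, 2.19 to 8.47 CPM in untreated cells, 2.31 to 3.05 CPM at 90 min and 2.35 to 3.47 CPM in the knockdown. At 7 days most of this sum was CD68. The cultures were of 1 cell line, and whether CD68 and INPP5D rose in the same cells was not tested.

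KITLG, the ligand of the KIT receptor, had log2 fold changes of 0.57 ± 0.09 at 90 min and 1.12 ± 0.09 at 7 days, and the first call was lost without untreated replicate 5 (0.488) and without replicate 4 (0.498, or 0.51 and called with the TMM factors kept). The receptor tyrosine kinase gene EPHA2 was called at 90 min, at 271 ± 5.84 CPM compared with 185 ± 20.1 CPM in untreated cells (SD, n = 5), and this call too was lost without untreated replicate 5 (0.49). At 7 days EPHA2 had a log2 fold change of 0.23 ± 0.06. PLXNB2, a semaphorin receptor, had the highest level per kilobase of the 40 members in untreated cells, 85.1 ± 8.54 CPM per kb (SD, n = 5), followed by DDB2 with 66.9 ± 6.68 CPM per kb. PLXNB2 was called neither at 90 min nor at 7 days, with a log2 fold change of 0.43 ± 0.05 at 7 days. NINJ1, of plasma membrane rupture, was called in no comparison and was at 106, 98.6, 98.4, 121 and 129 CPM in untreated cells and 130, 132, 136, 135 and 131 CPM at 7 days, just above the highest untreated library. RAP2B, a small GTPase whose window held an exact half-site, was called in no comparison. It was at 63.6, 52.1, 58.4, 69.5 and 43.2 CPM in untreated cells, 73.2, 64.2, 64.9, 65.4 and 71.5 CPM at 90 min and 55.4, 56.0, 51.3, 53.8 and 51.3 CPM at 7 days, and its log2 fold change at 7 days was −0.10 ± 0.08, with −0.21 without untreated replicate 5 and −0.049 without replicate 4.

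Between 90 min and 7 days, 15 of the 39 members were called higher and 3 lower, with backgrounds of 16.8% and 12.6% (29.3% in either direction) of all genes and a member median of 0.33. The libraries did not overlap for 34 members, compared with 61.8% of all genes. By the calls of the 3 comparisons, which share their libraries, 3 members were early, that is higher at 90 min and lower at 7 days than at 90 min (BTG2, RRAD and SERTAD1), as were 0.474% of all genes tested. A second class of 9 was higher at both times and not called between them (SESN1, SESN2, TP53INP1, PLK2, PLK3, PHLDA3, AEN, TRIAP1 and ANKRA2), compared with 0.727% of all genes. The largest class, of 14 members, was higher at 7 days than in both earlier groups (PVRL4, INPP5D, GLS2, CMBL, ACER2, RRM2B, FDXR, ZMAT3, KITLG, CYFIP2, EDA2R, IKBIP, ASCC3 and TP53I3), compared with 13.6% of all genes. The other 13 tested members followed none of these rules, as did 85.2% of all genes. Against untreated cells, 17 members were called higher at both times, 2 at 90 min and not at 7 days (EPHA2 and SERTAD1), 12 at 7 days and not at 90 min, and 8 at neither. The shares of all genes in these 4 classes were 1.21%, 0.867%, 15.5% and 82.4%. Within lane 4, which held 2 libraries each of 90 min and 7 days, all 18 calls between the times were also made. Closest to the limit of 0.5 between the times lay EDA2R on the inside (0.52) and PLK3 on the outside (0.46). The EDA2R call, which puts it in the largest class, was lost in 6 of 10 fits that left out 1 library and repeated the filter and TMM scaling, with values of 0.48 to 0.52. It was lost in 0 of 10 when the genes tested and the TMM factors of all libraries were kept, with values of 0.50 to 0.53.

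**Figure D4:**
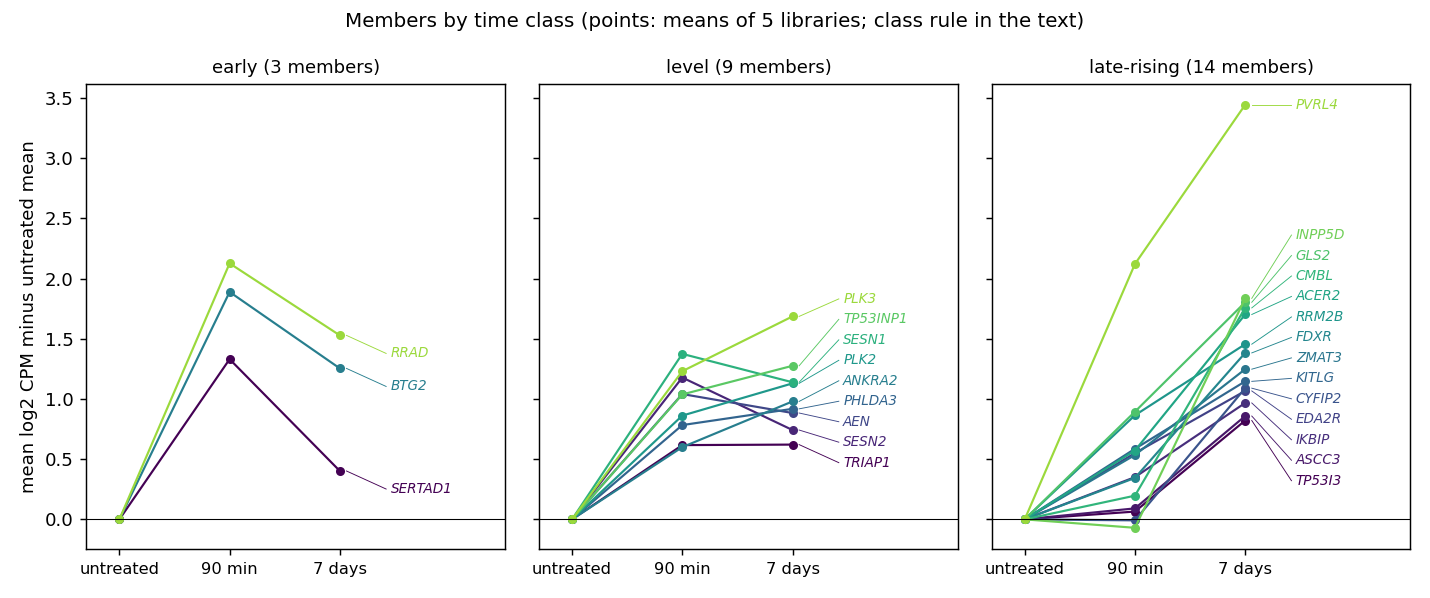
Mean log2 CPM of 5 libraries minus the untreated mean, in untreated cells and at 90 min and 7 days after IR, for the members of 3 time classes defined by calls. The 3 early members have their highest point at 90 min, and all 14 late-rising members at 7 days.

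In the NFKBIA knockdown the share of members called higher was close to that of all genes. Of the 39 tested members, 2 were higher and 0 lower against untreated cells, with backgrounds of 5.18% and 7.53% (12.7% in either direction) of all genes. The median log2 fold change was 0.07 for the members and −0.01 for all genes. Leaving out 1 library gave member medians from 0.031 (without untreated replicate 5) to 0.12. For 15 members no knockdown library overlapped with an untreated one (24.1% of all genes), and in both directions members had an unadjusted p under 0.05, 15 above 0 (23.5% of all genes) and 7 below (25.1%). PVRL4 was at 12.9, 12.6, 10.8, 11.9 and 10.8 CPM in the knockdown, above all untreated libraries and below all irradiated ones, with a log2 fold change of 0.84 ± 0.08 (adjusted p = 7.2e-08). RRM2B was at 326, 335, 338, 349 and 328 CPM, again above all untreated libraries, with a log2 fold change of 0.53 ± 0.08 (adjusted p = 9.3e-06). The RRM2B call was lost without untreated replicate 5 (0.43) and without replicate 4 (0.50, or 0.52 and called with the TMM factors of all libraries kept).

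ANKRA2, with a log2 fold change of 0.49 ± 0.06, lay nearest to the limit without a call. It was called without untreated replicate 2 (0.53), without knockdown replicate 1 (0.51) and without knockdown replicate 3 (0.5002, or 0.4977 and not called with the TMM factors kept), and it was called without untreated replicate 4 when the factors were kept (0.5007). The next values above 0 were those of ACER2 (0.44 ± 0.13), IKBIP (0.39 ± 0.06) and SESN1 (0.35 ± 0.08), which were not called either. The lowest values, none of them called, were those of PLK2, at 65.2, 68.8, 66.2, 66.2 and 60.2 CPM and below all untreated libraries, with a log2 fold change of −0.45 ± 0.05, RAP2B with −0.43 ± 0.09, PRDM1 with −0.38 ± 0.12 and DDB2 with −0.38 ± 0.05. Of the early members, BTG2 was at 61.4, 59.8, 63.0, 60.9 and 61.2 CPM and SERTAD1 at 34, 31.6, 30.5, 33.3 and 30.8 CPM in the knockdown, which overlapped with the untreated libraries for both. Without untreated replicate 5 the called members were PVRL4 and ACER2 (0.51) on the higher side and RAP2B (−0.53) on the lower. Without knockdown replicate 1 the count of higher members was 4, and without untreated replicate 4 it was 1 (3 with the TMM factors kept). No lane held both untreated and knockdown libraries. With lane as a factor the untreated level rests on untreated replicate 5 alone, and the member median was 0.37 in that fit. The proliferation genes, 20 genes of the cell cycle, had 4 lower (7.53% of all genes) and 0 higher in the knockdown with a median of −0.37.

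**Figure D5:**
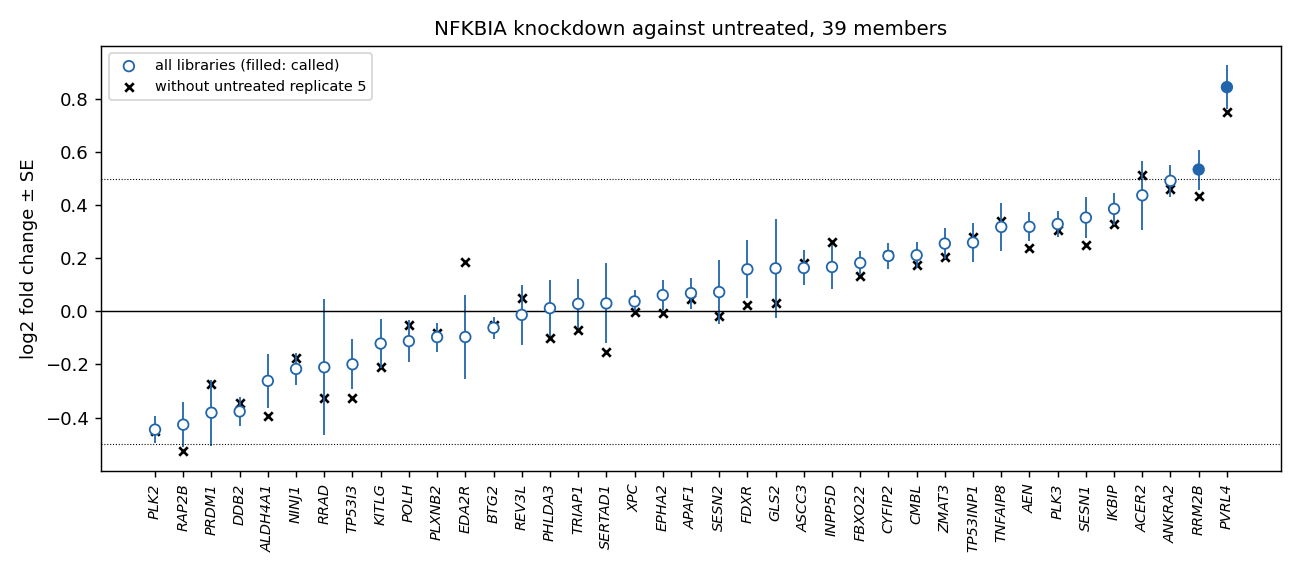
Log2 fold change ± SE of 39 members in NFKBIA knockdown against untreated cells, sorted, with filled circles for called members and crosses for the values without untreated replicate 5. PVRL4 and RRM2B are filled, and the cross of RRM2B lies under the dotted limit of 0.5.

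Compared directly, cells at 7 days and knockdown cells differed in most members. At 7 days 31 members were higher and 0 lower than in the knockdown, with backgrounds of 15.8% and 9.89% (25.7% in either direction) of all genes and medians of 0.88 for the members and 0.00 for all genes. The libraries did not overlap for 38 members (60.7% of all genes). PVRL4 differed most, by a log2 fold change of 2.58 ± 0.08 (5.99-fold, adjusted p = 1.9e-16). RRAD, at 1.29, 0.970, 1.38, 0.953 and 0.673 CPM in the knockdown, differed by 1.69 ± 0.22. INPP5D was at 20.1, 21.0, 21.5, 19.4 and 20.8 CPM in the knockdown and lower than at 7 days by a log2 fold change of 1.66 ± 0.08. GLS2, at 1.38, 1.03, 1.38, 1.28 and 1.74 CPM in the knockdown, differed by 1.61 ± 0.16, and PLK2 by 1.57 ± 0.05. Within lane 5, which held 3 libraries of the 7 days group and 1 of the knockdown, all 31 differences had the same direction. With 1 knockdown library in this lane, that is a statement of values and not a test.

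By role, 5 of 6 repair genes and 8 of 8 redox and metabolic genes were higher at 7 days than in the knockdown. So were 7 of 9 genes of growth arrest, transcription and protein turnover. The same held for 6 of 8 death and survival genes and 5 of 8 surface and signalling genes, compared with 15.8% of all genes. The members that were not called in this comparison were REV3L, APAF1, TNFAIP8, ANKRA2, SERTAD1, EPHA2, NINJ1 and RAP2B. The call of PLXNB2 (0.53 ± 0.05) was lost without knockdown replicate 1 (0.49), but not with the TMM factors of all libraries kept (0.51).

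Other p53 targets and regulators, a list of 25 genes of which 21 were tested, were measured in the same libraries. At 90 min 8 were higher and 0 lower (2.08% and 1.57% of all genes), with a median log2 fold change of 0.30. After 7 days 11 were higher and 2 lower (16.7% and 14.4% of all genes), with a median of 0.68. In the knockdown 2 were higher and 1 lower (5.18% and 7.53% of all genes), with a median of 0.19. CDKN1A, the CDK inhibitor p21, was at 200 to 242 CPM in untreated cells, 656 to 714 CPM at 90 min, 805 to 837 CPM at 7 days and 243 to 272 CPM in the knockdown. MDM2, the ubiquitin ligase of p53, was at 193 to 211 CPM in untreated cells, 485 to 518 CPM at 90 min, 690 to 719 CPM at 7 days and 192 to 209 CPM in the knockdown. For both genes the libraries of the 3 time points did not overlap, and in the knockdown MDM2 overlapped with untreated cells while CDKN1A lay just above them. Of the 20 proliferation genes 3 were lower at 90 min, when 1.57% of all genes were, and 20 at 7 days, when 14.4% of all genes were, and their median log2 fold change at 7 days was −1.06.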

How the data were processed

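Whole-cell RNA of 20 U2-OS libraries was measured by stranded mRNA sequencing (single reads, Illumina HiSeq). The authors deposited a table of raw read counts per gene, without normalization, with gene symbols, Ensembl identifiers and a width in bases, used here for levels per kilobase. The submitters' processing notes name bcl2fastq, Trimmomatic, STAR 2.4.2a and hg19; the counting tool, annotation and strand setting are not given in the sources used here, so that overlapping genes may share reads. In GENCODE 29, 14 of the 40 members share exon bases with another gene. The study describes the libraries of the untreated and irradiated groups as biological replicates; for the knockdown no separate cultures are named, so that its p-values measure the spread between these libraries.

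The main test was the quasi-likelihood test of edgeR 4.0.16 (R 4.3.3), after filterByExpr with a minimum count of 10 and TMM scaling, in 1 model of the 4 groups over all libraries. P-values were adjusted by Benjamini-Hochberg over 14992 genes. SE were computed from the F statistic. CPM on the log2 scale used a prior count of 2. Means are given with SD. Alternatives were DESeq2 1.42.0, RLE and upper-quartile factors, library size alone, other filters and thresholds, lane or replicate number as a factor, single lanes, and leaving out each library, with the filter and TMM scaling repeated or, added after seeing the data, kept. The test was tried on simulated data. Values of single libraries were given, not always in all 4 groups, for the 5 largest called members of each comparison. They were also given for members called in opposite directions or in no comparison, and counts for members under the filter. Values of EDA2R were added after they were seen. The members, roles and lists were chosen with earlier results of these data known. PECAM1 was not analysed here.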

Additional observations from a re-analysis of the deposited data

Results flagged for a closer look

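In 160 groups of 5 values (39 members and the total count in 4 groups), 13 had a highest or lowest library far from the others by Dixon's criterion at the 95% level, where chance gives about 1 in 20. Untreated replicate 5 held 5 of these. It was the lowest untreated library for AEN (66.3 CPM, the others 83.0 to 85.9), PVRL4 (4.80 CPM, the others 6.70 to 7.31) and ALDH4A1 (26.1 CPM, the others 40.5 to 45.8), and the highest for EDA2R (114 CPM, the others 43.4 to 57.1) and INPP5D (24.4 CPM, the others 15.8 to 18.0). Replicate 1 of the 90 min group held 4. It was highest for PHLDA3 (185 CPM, the others 132 to 146) and SERTAD1 (80.8 CPM, the others 72.0 to 73.9), lowest for REV3L (61.7 CPM, the others 73.9 to 76.8), and had the highest total count of its group (39546228). Replicate 5 of the knockdown was lowest for TRIAP1 (39.9 CPM, the others 43.1 to 44.2) and highest for ANKRA2 (24.3 CPM, the others 21.4 to 22.2). At 7 days, replicate 1 was highest for INPP5D (68.5 CPM, the others 63.5 to 64.8) and replicate 4 lowest for FBXO22 (139.5 CPM, the others 150 CPM).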

How the results depend on the processing

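For the members' single log2 fold changes printed above, no called value reversed its sign under any of the alternatives run, and DESeq2, RLE and upper-quartile factors, the filters, and fits of only the groups compared each changed the call of 2 or fewer. With lane as a factor the untreated level rests on untreated replicate 5, since the other untreated libraries shared no lane with another group. The member medians were then 0.64 at 90 min, 1.14 at 7 days and 0.37 in the knockdown. From 90 min to 7 days the median was 0.31. Uncalled values that changed sign were those of EDA2R at 90 min (−0.34) and of PRDM1 (−0.22) and RAP2B (0.34) at 7 days. In the knockdown they were ACER2 (−0.043) and RAP2B (0.066). Within single lanes, lanes 3 and 5 set other libraries against 1, so that the lone library is taken to vary like them. The medians there were 0.63 at 90 min and 0.30 from 90 min to 7 days, and EDA2R at 90 min was at −0.35. Lane 3 holds 1 untreated library, replicate 5, and the 90 min values of that lane are set against it alone. Why replicate 5 differs from the other untreated libraries was not tested. With library size alone the medians were 0.93 at 7 days, 0.13 in the knockdown and 0.35 from 90 min to 7 days, where they were 0.36 with upper-quartile factors and 0.30 without a filter. Without a minimum on the fold change 29 members were higher and 1 lower at 90 min, 14 higher and 6 lower in the knockdown, and 26 higher and 8 lower from 90 min to 7 days, with 8 early, 26 late-rising, 3 level and 2 other members. With a log2 fold change above 1, 9 were higher at 90 min, 16 at 7 days, 0 in the knockdown, 6 (and 0 lower) from 90 min to 7 days and 13 at 7 days against the knockdown, with 0 early, 6 late-rising, 5 level and 28 other members. Bonferroni correction left 1 member lower from 90 min to 7 days and 1 early. Leaving out each library in turn, with the filter and TMM scaling repeated on those left, gave 16 (without untreated replicate 4) to 19 higher members at 90 min and 28 to 29 at 7 days, 1 (without untreated replicate 4) to 4 (without knockdown replicate 1) higher and 0 to 1 (without untreated replicate 5) lower in the knockdown with medians of 0.031 to 0.12, medians of 0.43 to 0.49 at 90 min, 0.86 to 0.90 at 7 days, 0.30 to 0.33 from 90 min to 7 days and 0.84 to 0.87 against the knockdown, and 2 to 3 early members and 2 to 3 lower from 90 min to 7 days. With the genes, library sizes and TMM factors of all libraries kept, an alternative chosen after seeing the data, the counts were 18 to 19 at 90 min, 28 to 29 at 7 days and 2 to 4 in the knockdown, and the medians 0.44 to 0.49, 0.88 to 0.90, 0.048 to 0.12, 0.32 to 0.34 from 90 min to 7 days and 0.86 to 0.88 against the knockdown. The filter and the scaling were not varied separately when a library was left out. Same-numbered replicates did not deviate together, with correlations of −0.25 to 0.12 over 25 pairs, of which 1 was over 0.1, so that the numbers do not pair the libraries. With the replicate number as a block 20 members were higher at 90 min, the median was 0.51, and EDA2R (0.51) was the added call. At 22535659 counts or more per library, SPATA18 had too few counts to be tested, and RRAD, at a low level, had the largest SE of the members in each comparison.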
